A study of Mus musculus with 60 samples.

Results

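The potassium channel family was taken as all genes of the count table whose mouse symbol begins with Kcn, without antisense and overlapping transcripts and without 2 genes that the rule leaves out. This gave 82 genes of 20423, of which 68 encode pore-forming subunits and 14 encode auxiliary or regulatory subunits. They were measured by RNA sequencing of cerebral cortex, striatum and cerebellum from female and male mice that were wild-type or homozygous for PON2 deficiency, the loss of paraoxonase 2, an antioxidant enzyme of intracellular membranes. Each of the 12 groups of region, sex and genotype held 5 libraries, 60 in all. All mice were of C57BL/6J background, were bred as littermates from heterozygous parents, were 3 to 4 months old and had completed behavioural tests before the tissue was taken, wild-type mice included. The deficiency was present in the whole animal, and nothing given with the series says whether libraries of different regions came from the same mice. The p-values therefore measure the spread between these libraries.

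Potassium channels let potassium ions leave or enter the cell and so set the resting potential, shape the action potential and limit repetitive firing. Most pores are assembled from several subunits around a selectivity filter, and auxiliary subunits change their gating, trafficking and inactivation. Voltage-gated Kv channels open on depolarisation, inward rectifiers (Kir) hold the membrane near rest, K2P channels carry leak current, and the SK and BK channels are opened by calcium. In cerebellum, Kv3 channels are known for the narrow action potentials and fast firing of Purkinje and granule neurons. In striatum, Kir2 and Kv1 currents are known for the negative resting potential and delayed firing of projection neurons.

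The libraries held 26091911 to 28125224 counts each. Pon2, the targeted gene, lay between 39.2 and 58.9 CPM (counts scaled to library size) in the 30 wild-type libraries and between 0.457 and 6.91 CPM in the PON2-deficient ones, so no library went against its label. Each region was highest in the summed markers of its own neurons, with 1548 to 2038 CPM of cortical excitatory markers in wild-type cortex, 4684 to 8617 CPM of projection neuron markers in striatum and 4874 to 5554 CPM of granule neuron markers in cerebellum. One library stood apart. Striatum male PON2-deficient replicate 5 had a mean deposited precision weight 0.0527 times its region's median, and counts of calls and the named genotype differences of striatum are also given without it.

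The selectivity filter is what the pore-forming members share in sequence. A search of the longest coding sequence of each gene, in frame, for ACNNNNGGNTANGGN or ACNNNNGGNTTNGGN (N is any base, and the letters cover the codons of the filter's threonine, glycine, tyrosine or phenylalanine, and glycine, while TTN also covers leucine codons) matched 57 of the 68 pore-forming members, or 83.8%. All 18 matches to the second pattern, in 15 pore-forming members, had a phenylalanine codon there. The search matched 0 of the 14 auxiliary members and 1.17% of 15903 genes outside the family. Of the 11 K2P genes, whose subunits carry a pair of pore domains, 9 matched at 2 or more places. The 11 pore-forming members without a match were Kcnh1, Kcnh2, Kcnh3, Kcnh4, Kcnh6, Kcnh7, Kcnh8, Kcnj14, Kcnn1, Kcnn2 and Kcnn3, and the lack of a match says only that these letters are not in the sequence searched. The windows below are shown for members with large regional differences, 45 bases each, 5′ to 3′, GRCm38, with the motif in capitals.
Kcnc1, chr7:46427958-46428002, plus strand, exon 2 of 4: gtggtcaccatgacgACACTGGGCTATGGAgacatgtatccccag
Kcnc2, chr10:112456214-112456258, plus strand, exon 3 of 5: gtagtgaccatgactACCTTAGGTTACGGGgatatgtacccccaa
Kcng4, chr8:119625895-119625939, minus strand, exon 3 of 3: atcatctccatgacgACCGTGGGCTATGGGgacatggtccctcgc
Kcnf1, chr12:17175046-17175090, minus strand, exon 1 of 1: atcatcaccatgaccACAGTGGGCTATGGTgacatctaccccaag
Kcnv1, chr15:45109274-45109318, minus strand, exon 3 of 3: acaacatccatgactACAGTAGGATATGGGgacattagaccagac
Kcnj4, chr15:79485352-79485396, minus strand, exon 2 of 2: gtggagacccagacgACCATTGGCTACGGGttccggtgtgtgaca
Kcnk3, chr5:30622187-30622231, plus strand, exon 2 of 2: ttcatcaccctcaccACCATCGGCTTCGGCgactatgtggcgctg
The windows of Kcnc1 and Kcnc2 were identical at 33 of 45 bases (73.3%), and those of Kcnc1 and its relative Kcnc4 at 40 (88.9%). Kcnf1 encodes a silent subunit, which forms no working channel on its own, and shared 80.0% of the window with Kcnc1 and 75.6% with Kcng4, another silent subunit. Kcnj4 shared 86.7% of its window with Kcnj2 and 37.8% with Kcnv1.

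The first comparison asked how the channel repertoire of wild-type mice differs between regions, with 10 libraries per region. A gene was called when its adjusted p (edgeR quasi-likelihood test, Benjamini-Hochberg over all genes) was under 0.05 and its difference was at least 2-fold (1 on the log2 scale). Between cerebellum and cortex, 49 of 82 members were called, 14 higher and 35 lower in cerebellum, against a background of 24.4% of all tested genes (9.32% higher and 15.1% lower). Between cerebellum and striatum, 53 members were called, 18 higher and 35 lower, against 25.8% of all genes (10.7% higher and 15.1% lower). Between striatum and cortex, 19 members were called, against 7.30% of all genes, and 66 passed by adjusted p alone, against 46.7% of all genes. The median member was 0.55 lower in cerebellum than in cortex on the log2 scale, where the median gene stood at 0.01. These tissues hold many cell types, and fewer cells of a type and less RNA per cell cannot be told apart in them.

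The members were then sorted by regional pattern. In 10 members the cerebellum was called higher than both other regions, a pattern of 7.18% of all genes, and in a further member, Kcnk12, the striatum was also called lowest (0.443% of all genes). In 23 members the cerebellum was called lower than both others without a call between cortex and striatum, a pattern of 9.28% of all genes. The cortex was highest and the cerebellum lowest in Kcnh7, Kcns1, Kcns3 and Kcnt2 (1.37% of all genes), and the striatum was highest and the cerebellum lowest in Kcna4, Kcna5, Kcng3 and Kcnj2 (1.43%). The Kcng3 call between striatum and cortex (log2 1.04) fell under the 2-fold limit with voom (0.90), with a replicate block (0.98), in 5 of the fits without 1 library and in PON2-deficient libraries (0.88). Kcnab1 was highest in striatum (0.861%), and Kcnk4 and Kcnk15 were highest in cortex (0.912%). In PON2-deficient libraries Kcnab1 was not called between cerebellum and striatum. Kcnk15 averaged 0.343 CPM in wild-type cortex and 0.217 CPM in PON2-deficient cortex. It did not pass the expression filter in the PON2-deficient libraries, so its pattern was not tested there. Kcnab3, Kcnj3, Kcnj9 and Kcnk9 were lowest in striatum (0.861%). In 0 members was the cortex called lower than both others (0.373%). No pair of regions was called in 20 members, against 68.7% of all genes. The other 13 members were called in at least 1 pair without 1 region standing above or under both others (8.56% of all genes). They were Kcna2, Kcnc4, Kcnd1, Kcnd3, Kcne1l, Kcnh8, Kcnj16, Kcnj6, Kcnk13, Kcnmb2, Kcnn1, Kcnq1 and Kcnt1.

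**Figure D1:**
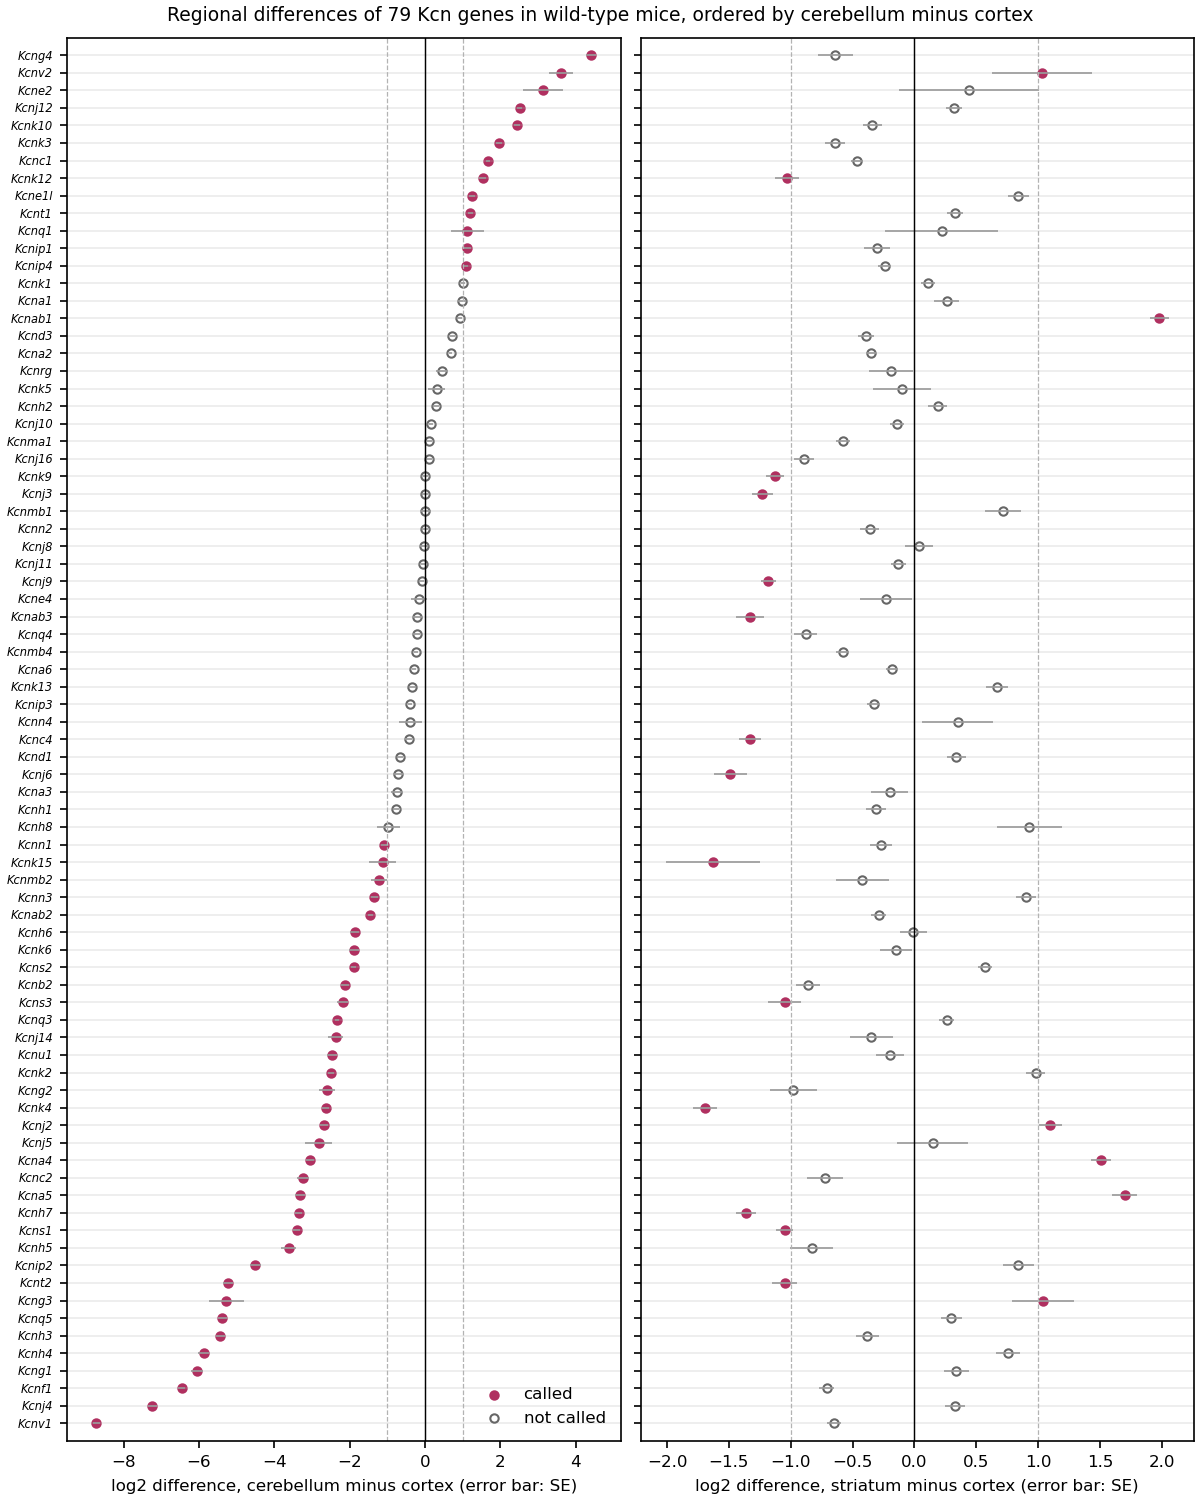
Log2 differences of 79 of the genes in wild-type mice, cerebellum minus cortex on the left and striatum minus cortex on the right, in the order of the left panel (points: fit over 10 libraries per region, bars: SE, filled: called, dashed lines: 2-fold). The left panel runs from -8.73 (Kcnv1) to 4.40 (Kcng4), while the right panel stays between -1.69 (Kcnk4) and 1.98 (Kcnab1), and both panels use the same cortex libraries.

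Kv3 subunits, which open only at strong depolarisation and close fast, differed between regions in both directions. Kcnc1 (Kv3.1) ranged from 195 to 233 CPM in cortex (median 215), from 128 to 205 CPM in striatum (median 142) and from 621 to 765 CPM in cerebellum (median 677). Every cerebellar library lay above every library of the other regions, and the difference from cortex was 3.20-fold (log2 1.68, SE 0.0496, edgeR adjusted p 4.90e-23). Kcnc2 (Kv3.2), known from fast-spiking interneurons, went the other way, with 86.5 to 105 CPM in cortex (median 97.3), 39.3 to 92.3 CPM in striatum (median 51.5) and 3.64 to 14.7 CPM in cerebellum (median 10.5). Cerebellum and cortex did not overlap, and the cerebellum was 9.38-fold lower (log2 -3.23, SE 0.162, edgeR adjusted p 2.69e-17). Kcnc4 (Kv3.4) was lowest in striatum, at 22.3 to 46.7 CPM against 77.8 to 88.4 CPM in cortex, which did not overlap (2.51-fold, log2 -1.33, edgeR adjusted p 2.14e-13).

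Among the silent Kv subunits, which modify Kv2 channels, 10 of 10 members were called between cerebellum and cortex, 2 higher and 8 lower. Of all genes 24.4% were called, 9.32% higher and 15.1% lower. The 10 include Kcnv2, higher in cerebellum and under 1 CPM in every region, which did not pass the expression filter within cortex or striatum. Kcnv1 and Kcng3 did not pass it within cerebellum. These genes entered the count through the regions where they are high. Kcng4 (Kv6.4) ranged from 6.92 to 9.26 CPM in cortex (median 8.27), from 2.62 to 15.1 CPM in striatum (median 3.96) and from 152 to 191 CPM in cerebellum (median 172). It was 21.2-fold higher in cerebellum than in cortex (log2 4.40, SE 0.132, edgeR adjusted p 6.81e-23), the largest rise of the 82 members between these regions. Kcnv1 (Kv8.1) showed the largest fall, from 60.4 to 98.3 CPM in cortex (median 85.2) and 42.9 to 62.3 CPM in striatum (median 51.1) to 0.137 to 0.276 CPM in cerebellum (median 0.175). The cerebellum overlapped neither region, and the difference from cortex was 426-fold (log2 -8.73, SE 0.0958, edgeR adjusted p 9.94e-33). The cerebellar levels of Kcnv1 rest on few counts, so the size of this fold is approximate. Kcnf1 (Kv5.1) ranged from 124 to 166 CPM in cortex, from 68.9 to 101 CPM in striatum and from 1.21 to 2.36 CPM in cerebellum, without overlap of any pair of regions, and was 88.0-fold lower in cerebellum than in cortex (log2 -6.46, SE 0.0869, edgeR adjusted p 5.08e-31). Kcng1 (Kv6.1) had 21.9 to 33.7 CPM in cortex and 0.104 to 0.764 CPM in cerebellum, which did not overlap (log2 -6.06, SE 0.16, edgeR adjusted p 2.87e-24). Kcns1, Kcns2, Kcns3 and Kcng2 were also lower in cerebellum, with log2 differences from cortex between -3.41 and -1.89. Kcng3 reached at most 2.16 CPM in a wild-type library, and its levels in cerebellum, from 0.00 to 0.0691 CPM, are too few counts for a fold. Kcnb2, a Kv2 subunit of the kind that silent subunits join, was also lower in cerebellum (log2 -2.12, SE 0.102, edgeR adjusted p 1.00e-17).

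**Figure D2:**
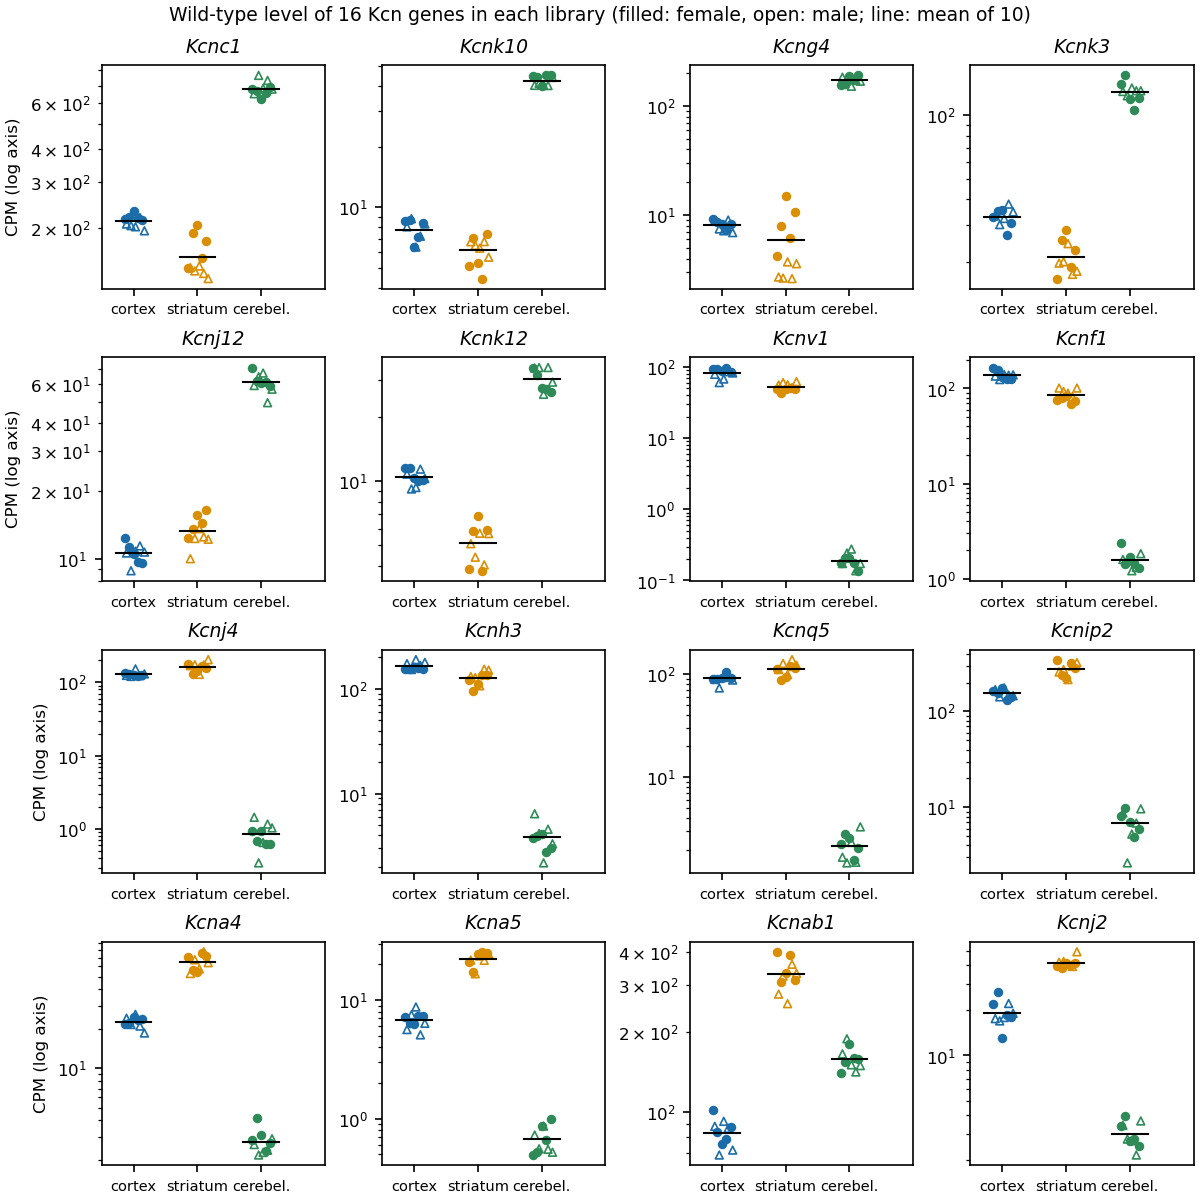
CPM (log axis) of 16 members in each wild-type library of the 3 regions, circles for females, triangles for males, a line for the mean of 10. The first 6 panels show genes highest in cerebellum, such as Kcnc1 at 621 to 765 CPM, the next 6 show genes lowest there, such as Kcnv1 at 0.137 to 0.276 CPM, and the last 4 show genes highest in striatum.

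The EAG, ERG and ELK channels, relatives of Kv channels, were called lower in cerebellum than in cortex in 5 of 8 members and higher in 0. Of all genes 15.1% were called lower and 9.32% higher. Kcnh3 (ELK) ranged from 153 to 190 CPM in cortex (median 159), from 94.5 to 154 CPM in striatum (median 130) and from 2.18 to 6.42 CPM in cerebellum (median 3.83). The cerebellum did not overlap the cortex and was 43.2-fold lower (log2 -5.43, SE 0.119, edgeR adjusted p 3.06e-26). Kcnh4 (ELK) had 17.7 to 28.7 CPM in cortex, 25.4 to 44.9 CPM in striatum and 0.207 to 0.663 CPM in cerebellum, and was 100-fold lower in cerebellum than in striatum without overlap (log2 -6.64, SE 0.149, edgeR adjusted p 4.64e-26). Kcnh7 (ERG) was highest in cortex, at 98.1 to 153 CPM against 35.0 to 68.6 CPM in striatum and 10.1 to 14.4 CPM in cerebellum, with no overlap. Kcnh2 (ERG), known from the heart's repolarising current, differed little, with 34.7 to 46.9 CPM in cortex and 42.9 to 63.3 CPM in cerebellum, which overlapped.

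The Kv7 subunits carry the M-current that muscarinic receptors close. Kcnq5 ranged from 73.0 to 105 CPM in cortex (median 90.3), from 87.1 to 137 CPM in striatum (median 112) and from 1.49 to 3.32 CPM in cerebellum (median 2.18). The cerebellum overlapped neither region and was 41.5-fold lower than cortex (log2 -5.38, SE 0.113, edgeR adjusted p 1.03e-26). Kcnq3, of the same subfamily, had 157 to 215 CPM in cortex and 31.9 to 42.0 CPM in cerebellum, 5.08-fold lower without overlap (log2 -2.34, SE 0.0605, edgeR adjusted p 1.69e-24).

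Of the 12 inward rectifiers 1 was called higher and 4 lower in cerebellum than in cortex, against 9.32% and 15.1% of all genes. The count of higher calls was near that background. Members of 1 subfamily went both ways. Kcnj4 (Kir2.3) ranged from 120 to 152 CPM in cortex (median 126), from 128 to 203 CPM in striatum (median 166) and from 0.347 to 1.45 CPM in cerebellum (median 0.817). The cerebellum did not overlap the other regions, and the fall from cortex was 151-fold (log2 -7.24, SE 0.124, edgeR adjusted p 9.97e-29). Kcnj12 (Kir2.2), of the same subfamily, went the other way, with 8.84 to 12.3 CPM in cortex (median 10.7), 10.0 to 16.4 CPM in striatum (median 13.0) and 49.4 to 70.8 CPM in cerebellum (median 60.9). It was 5.75-fold higher in cerebellum than in cortex without overlap (log2 2.52, SE 0.0673, edgeR adjusted p 3.63e-24). Kcnj2 (Kir2.1) was highest in striatum, at 38.5 to 49.1 CPM against 13.1 to 26.6 CPM in cortex and 2.17 to 3.97 CPM in cerebellum, with no overlap, and the striatum was 2.15-fold above cortex (log2 1.10, SE 0.0922, edgeR adjusted p 2.80e-11). The G-protein-gated Kcnj3 (Kir3.1) and Kcnj9 (Kir3.3), opened by inhibitory receptors, were low in striatum. Kcnj3 had 37.7 to 76.6 CPM in striatum, 116 to 151 CPM in cortex and 122 to 152 CPM in cerebellum, so that striatum stood apart and the others overlapped, and 31.1% of its exon bases lie in Gm26794 as well (striatum minus cortex log2 -1.23, SE 0.0835, edgeR adjusted p 3.16e-13). Kcnj9 had 49.4 to 86.8 CPM in striatum and 133 to 163 CPM in cortex, which did not overlap (log2 -1.18, SE 0.063, edgeR adjusted p 1.64e-15). Kcnj6 (Kir3.2) fell in the same direction between striatum and cortex (log2 -1.49, SE 0.133, edgeR adjusted p 1.05e-10). The astrocyte channel Kcnj10 (Kir4.1), which clears potassium from around neurons, stayed level, at 183 to 231 CPM in cortex, 150 to 243 CPM in striatum and 187 to 259 CPM in cerebellum, all overlapping.

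Of the 5 members called at least 2-fold higher in striatum than in cortex that had striatum as their highest region, 2 are Kv1 pores and 1 is a Kv1 partner. Kcna4 (Kv1.4), which carries a fast inactivating A-type current, ranged from 18.6 to 25.8 CPM in cortex (median 22.9), from 52.9 to 77.5 CPM in striatum (median 65.6) and from 2.18 to 4.18 CPM in cerebellum (median 2.66). No regions overlapped, and striatum was 2.85-fold above cortex (log2 1.51, SE 0.0799, edgeR adjusted p 1.27e-15). Kcna5 (Kv1.5) ranged from 5.09 to 8.75 CPM in cortex (median 6.80), from 16.7 to 25.6 CPM in striatum (median 22.7) and from 0.492 to 1 CPM in cerebellum (median 0.609), again with no overlap (striatum minus cortex 3.26-fold, log2 1.70, SE 0.101, edgeR adjusted p 1.66e-14). Kcnab1, a Kv beta subunit that speeds the inactivation of Kv1 channels, ranged from 68.6 to 101 CPM in cortex (median 85.1), from 255 to 400 CPM in striatum (median 328) and from 140 to 188 CPM in cerebellum (median 156), with no overlap (striatum minus cortex 3.94-fold, log2 1.98, SE 0.0756, edgeR adjusted p 1.44e-18). Kcna1 and Kcna6 (39.6% of its exon bases shared with Gm26673 on the opposite strand, where whether the counting used strand is not given in the sources used here) lie beside Kcna5 on chromosome 6 (126532551 to 126740674 in GRCm38) without being called between any pair of regions. Kcna2, the most abundant Kv1 member per length in each region, was 2.03-fold higher in cerebellum than in striatum (442 to 522 against 212 to 275 CPM, log2 1.02, SE 0.0432, edgeR adjusted p 3.53e-19).

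Of the 11 K2P leak channels 3 were called higher and 4 lower in cerebellum than in cortex, against 9.32% and 15.1% of all genes. The lower calls include Kcnk15, at a mean of 0.343 CPM in wild-type cortex, which did not pass the expression filter within cerebellum. Kcnk3 (TASK-1) ranged from 26.8 to 37.8 CPM in cortex (median 33.0), from 16.7 to 28.4 CPM in striatum and from 106 to 155 CPM in cerebellum (median 131). The cerebellum did not overlap the others and was 3.93-fold above cortex (log2 1.97, SE 0.0806, edgeR adjusted p 1.63e-19). Kcnk10 (TREK-2) rose alongside, from 6.35 to 8.80 CPM in cortex and 4.45 to 7.36 CPM in striatum to 39.7 to 44.9 CPM in cerebellum, 5.42-fold above cortex without overlap (log2 2.44, SE 0.0749, edgeR adjusted p 1.22e-22). Its relative Kcnk2 (TREK-1, with 12.2% of its exon bases shared with A430027H14Rik on the opposite strand) was lowest there, at 10.8 to 14.8 CPM against 67.6 to 76.5 CPM in cortex and 103 to 176 CPM in striatum, 5.60-fold below cortex without overlap (log2 -2.49, SE 0.0827, edgeR adjusted p 9.20e-22). Kcnk12 (THIK-2) ranged from 9.20 to 11.6 CPM in cortex, from 3.80 to 6.88 CPM in striatum and from 25.6 to 34.2 CPM in cerebellum, and each pair of regions was called without overlap. Kcnk9 (TASK-3) was low in striatum, at 51.4 to 89.1 CPM against 138 to 161 CPM in cortex, without overlap (log2 -1.13, SE 0.0728, edgeR adjusted p 1.06e-13). Kcnk4 (TRAAK) was highest in cortex, at 13.6 to 16.9 CPM, 3.51 to 6.32 CPM in striatum and 2.05 to 3.77 CPM in cerebellum. Kcnk4 shares 13.1% of its exon bases with Catsperz on the same strand, so reads from those bases cannot be told apart.

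Among calcium- and sodium-opened channels, the BK pore Kcnma1 was level between cerebellum and cortex, at 201 to 296 CPM and 214 to 295 CPM, which overlapped (log2 0.12, SE 0.0566, edgeR adjusted p 0.0505). Kcnt1 (Slack), opened by sodium, ranged from 139 to 177 CPM in cortex and from 300 to 411 CPM in cerebellum, 2.31-fold higher without overlap (log2 1.21, SE 0.0638, edgeR adjusted p 9.44e-17). Its relative Kcnt2 (Slick) had 19.6 to 30.6 CPM in cortex, 7.14 to 16.5 CPM in striatum and 0.454 to 0.899 CPM in cerebellum, 37.6-fold lower in cerebellum than in cortex without overlap (log2 -5.23, SE 0.137, edgeR adjusted p 2.24e-24). So the Slack and Slick genes moved apart. The SK channel Kcnn3 was highest in striatum, at 35.6 to 57.8 CPM against 20.6 to 30.9 CPM in cortex and 7.53 to 12.1 CPM in cerebellum, and the cerebellum was 4.73-fold below striatum without overlap (log2 -2.24, SE 0.0855, edgeR adjusted p 2.66e-20). The Kv4 pore Kcnd3 was 2.15-fold higher in cerebellum than in striatum, at 87.5 to 124 against 41.2 to 60.8 CPM without overlap (log2 1.10, SE 0.0675, edgeR adjusted p 3.40e-15).

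Auxiliary subunits went in both directions as well. Kcnip2 (KChIP2), which binds Kv4 pores and raises their surface level, ranged from 133 to 176 CPM in cortex (median 153), from 215 to 347 CPM in striatum (median 278) and from 2.63 to 9.72 CPM in cerebellum (median 6.93). The cerebellum did not overlap and was 22.6-fold below cortex (log2 -4.50, SE 0.150, edgeR adjusted p 1.05e-21). Kcnip1 and Kcnip4, of the same family, were higher in cerebellum, at 38.9 to 54.1 and 95.9 to 127 CPM against 19.2 to 23.9 and 44.4 to 56.0 CPM in cortex, neither overlapping, with differences of 2.16-fold and 2.14-fold (edgeR adjusted p 8.61e-11 and 3.79e-18). Kcnip3 was not called in any pair. Kcnab2, a Kv beta subunit, was lower in cerebellum than in cortex (110 to 172 against 365 to 485 CPM, 2.74-fold, log2 -1.45, edgeR adjusted p 1.80e-18), and Kcnab3 was lowest in striatum (12.4 to 31.5 against 45.6 to 55.3 CPM in cortex, 2.51-fold, log2 -1.33, edgeR adjusted p 7.77e-11). The BK beta subunit Kcnmb4 was not called in any pair.

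Kcne2, an auxiliary subunit known from the choroid plexus, ranged from 0.149 to 3.39 CPM in cortex (median 0.811), from 0.366 to 6.33 CPM in striatum (median 0.662) and from 4.94 to 21.6 CPM in cerebellum (median 11.8). It was 8.82-fold higher in cerebellum than in cortex without overlap (log2 3.14, SE 0.535, edgeR adjusted p 5.32e-06), and cerebellum and striatum overlapped. The summed choroid plexus markers, of which 10 of 10 were in the table and none was at 0, ranged in wild-type from 23.6 to 487 CPM in cortex, from 33.9 to 1217 CPM in striatum and from 565 to 2238 CPM in cerebellum. Kcne2 was at 0.188 CPM in the cortex library with the lowest sum and at 3.37 CPM in the one with the highest. It stood at 0.385 and 6.33 CPM in the lowest and highest striatum libraries, and at 4.94 and 21.6 CPM in those of cerebellum. The part of these cells in the regional difference was not tested.

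Levels of different genes were compared only per length, as CPM per kilobase of exon. The pore-forming members summed to 704 ± 28.5 CPM per kb in cortex, 627 ± 23.7 in striatum and 793 ± 26.3 in cerebellum (SD, n = 10 wild-type libraries). In cortex the 5 highest members held 28.6% of that sum, in striatum 33.2% and in cerebellum 50.0%. Among them were Kcnk1 (TWIK-1) at 79.5 CPM per kb, Kcnc1 at 72.1, Kcng4 at 45.2 and Kcnj10 at 42.3. In cortex the order was Kcnj4 at 59.7 CPM per kb, Kcnk1 at 39.8, Kcnj10 at 37.5, Kcnj9 at 35.7 and Kcnf1 at 28.8. In striatum Kcnj4 stood at 75.1 CPM per kb, Kcnk1 at 42.9, Kcnj10 at 34.3 and Kcnk2 at 28.5. Kcnk1 and Kcnj10 were the members in the top 5 of all 3 regions. Kcnk1 and Kcnj10 in cortex (SD 3.37 and 2.93) and Kcng4 and Kcnj10 in cerebellum (SD 3.58 and 4.39) differed by less than the spread between libraries.

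Summed by class, Kv3 pores held 31.2% ± 0.628 of pore-forming transcripts in cerebellum (30.3 to 32.2% over the libraries), 12.2% ± 0.321 in cortex (11.8 to 12.7%) and 8.18% ± 1.31 in striatum (6.87 to 10.6%), all SD with n = 10. The 3 ranges did not overlap. Kir pores were the largest class in cortex (26.8% ± 0.456) and striatum (26.4% ± 0.719) and held 18.4% ± 0.756 in cerebellum. K2P pores held 12.5% ± 0.289 in cortex, 14.6% ± 0.962 in striatum and 19.0% ± 0.899 in cerebellum, with no overlap between regions. The EAG, ERG and ELK channels held 9.52% ± 0.385 in cortex and 2.51% ± 0.156 in cerebellum. The Kv7 channels held 7.23% ± 0.281 and 2.46% ± 0.134, again with no overlap between these regions, and with the longest coding transcript as length the Kv7 shares were 9.64% and 3.81%. No test was made on shares. In striatum the 2 wild-type libraries with the highest Kv3 shares were among the highest in summed thalamus markers. They had shares of 10.6% and 10.0% with 153 and 271 CPM, against 44.8 CPM in the wild-type library with the lowest share. A wild-type library at 190 CPM had a share of 8.30%. Cortical excitatory markers summed to 412 and 559 CPM in those 2 libraries and to 488 CPM in the lowest one. The thalamus list also summed to 463 to 527 CPM in wild-type cerebellum, so it does not mark thalamus alone. The part of neighbouring tissue in the share was not tested.

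**Figure D3:**
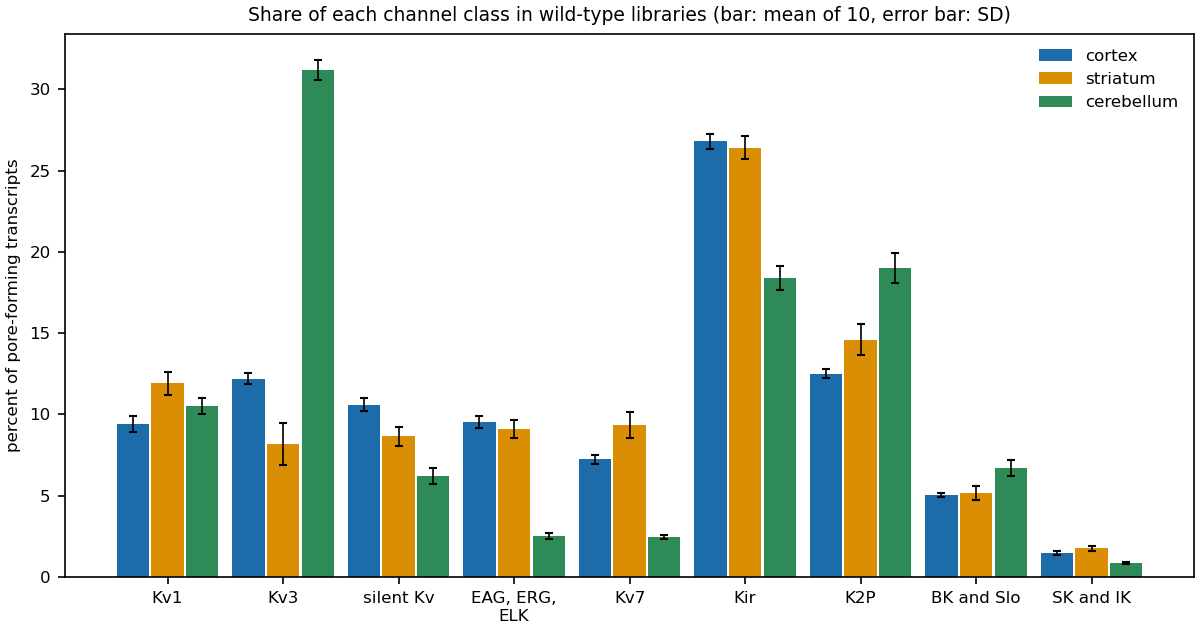
Percent of pore-forming Kcn transcripts (CPM per kb) in each channel class of at least 3 members, by region, in wild-type libraries (bar: mean of 10, error bar: SD). Kv3 reaches 31.2% in cerebellum, while Kir is the largest class in cortex at 26.8% and in striatum at 26.4%.

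The promoter sequences of members that move together were compared, as RefSeq gives them for 58 members (250 bases before the start, GRCm38.p6). The GC box GGGCGG, on either strand, was in 47.6% of the 82 member promoters and in 32.7% of 32849 promoters. TATAAA was in 2.44% of member promoters and in 12.4% of all. The E-box CACGTG was in 7.32% against 6.02%, and the cyclic AMP element TGACGTCA in 0.00% against 1.55%. Among the members highest in cerebellum 38.5% of 13 promoters, from 8 genes, held the GC box. Among the members lowest there 53.3% of 30, from 20 genes, did. The median GC content of these sets was 56.0% and 61.0%, against 59.0% in all member promoters and 52.4% in all promoters. The part of GC content in the motif shares was not tested. A matched motif describes these letters and does not mark a bound site. The promoters of a pair that is high in cerebellum and a pair that is low there are shown 5′ to 3′ with GC boxes in capitals.
Kcnc1 promoter, chr7:46396218-46396467, plus strand: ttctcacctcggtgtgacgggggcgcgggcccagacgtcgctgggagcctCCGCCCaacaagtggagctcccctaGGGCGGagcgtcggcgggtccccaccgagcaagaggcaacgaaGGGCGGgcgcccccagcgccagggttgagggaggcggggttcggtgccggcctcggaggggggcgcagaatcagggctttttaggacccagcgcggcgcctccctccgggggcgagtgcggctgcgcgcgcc
Kcng4 promoter, chr8:119635681-119635930, minus strand: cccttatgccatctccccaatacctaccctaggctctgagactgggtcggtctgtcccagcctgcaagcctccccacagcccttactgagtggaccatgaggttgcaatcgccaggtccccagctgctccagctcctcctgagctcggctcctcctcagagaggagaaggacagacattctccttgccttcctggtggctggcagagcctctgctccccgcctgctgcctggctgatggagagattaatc
Kcnj4 promoter, chr15:79505242-79505491, minus strand: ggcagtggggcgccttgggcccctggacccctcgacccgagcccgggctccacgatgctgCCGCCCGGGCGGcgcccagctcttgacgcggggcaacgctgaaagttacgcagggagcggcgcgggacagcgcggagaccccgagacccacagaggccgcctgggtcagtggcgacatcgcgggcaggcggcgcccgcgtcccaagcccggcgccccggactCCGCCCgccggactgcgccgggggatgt
Kcnf1 promoter, chr12:17176889-17177138, minus strand: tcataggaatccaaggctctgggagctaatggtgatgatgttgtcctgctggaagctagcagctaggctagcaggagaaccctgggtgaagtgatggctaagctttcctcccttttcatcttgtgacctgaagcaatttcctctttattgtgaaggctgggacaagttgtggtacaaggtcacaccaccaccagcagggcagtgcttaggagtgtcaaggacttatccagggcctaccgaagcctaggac
Within each pair the sequences differed in composition. Kcnc1 (74.4% GC, 30 CpG) held 3 GC boxes and Kcng4 (60.4% GC, 4 CpG) held none, although both are high in cerebellum. Kcnj4 (77.2% GC, 35 CpG) held 3 and Kcnf1 (51.2% GC, 1 CpG) held none, although both are low there.

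The regional differences were measured again in the PON2-deficient libraries, which are separate samples. Between cerebellum and cortex 50 of 81 tested members were called, against 24.9% of all genes, and 48 of them had been called in the same direction in wild-type. Between cerebellum and striatum 52 were called, against 26.1% of all genes, with 48 shared. Between striatum and cortex 19 were called, against 8.26% of all genes, with 16 shared. For Kcng4, cerebellum minus cortex was 4.43 (log2, SE 0.173, edgeR adjusted p 1.37e-19) in PON2-deficient libraries, against 4.40 in wild-type. Kcnv1 stood at -8.66 (SE 0.161, edgeR adjusted p 2.60e-27) against -8.73 in wild-type. The gaps between the genotypes in these regional differences cover the 81 members tested in both, without Kcnk15. The largest were 0.987 (log2) for Kcnj5 between cerebellum and cortex and 0.765 for Kcne2 between striatum and cortex, both genes with few counts. Leaving out striatum male PON2-deficient replicate 5 gave 50, 55 and 20 called members.

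**Figure D4:**
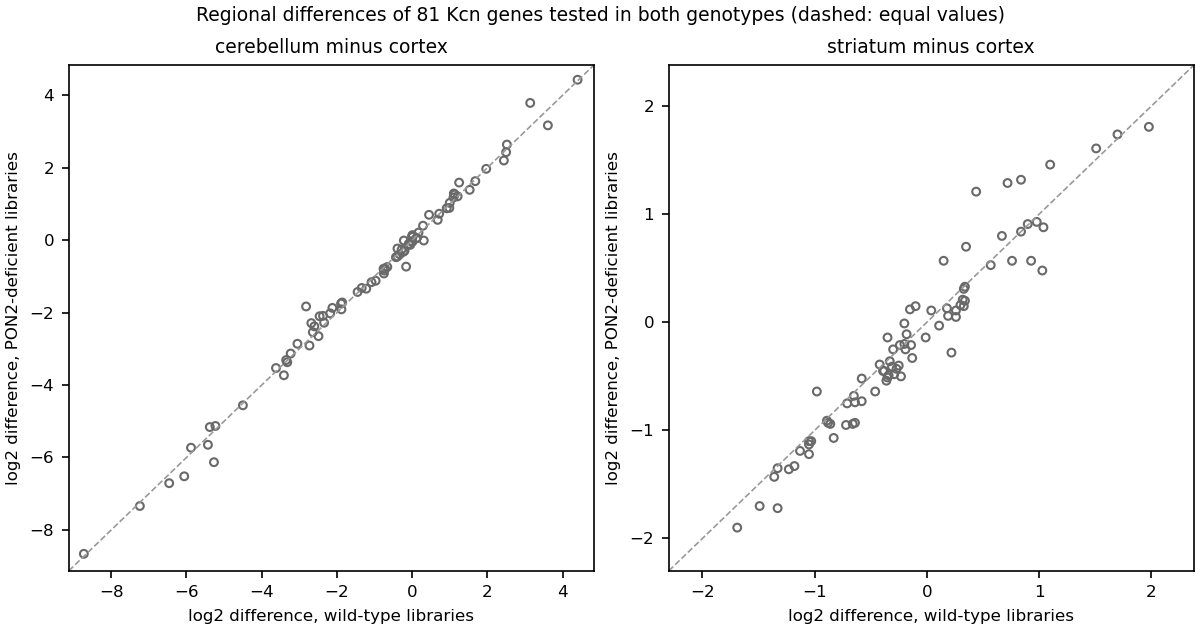
Log2 regional difference of each of 81 members in wild-type (x axis) and PON2-deficient (y axis) libraries, cerebellum minus cortex on the left and striatum minus cortex on the right, with a dashed line of equal values. Points lie along the line, with a median gap of 0.101 for cerebellum and cortex and 0.139 for striatum and cortex.

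The second comparison asked which members change with the loss of PON2 within a region, as the mean of both sexes with 10 libraries per genotype. No member was called in any genotype comparison by edgeR, where 0.0316% of all genes were called in cortex, 0.0105% in striatum and 0.0321% in cerebellum. An unadjusted p under 0.05 was reached by 7 of 80 members in cortex (8.75%, against 11.4% of all genes), by 3 of 80 in striatum (3.75%, against 4.94%) and by 7 of 77 in cerebellum (9.09%, against 11.1%). The median member differed by 0.03 in cortex, -0.05 in striatum and 0.00 in cerebellum on the log2 scale. In simulated data with these libraries' spread, 84% of genes changed 1.5-fold were called in cortex, 64% in striatum and 80% in cerebellum. Changes of 1.2-fold were called in 48%, 14% and 44%. Each simulation changed 50 genes at each fold size, all at a mean of 1 CPM or more. An adjusted threshold is looser where more genes pass, and few passed in the real data. These shares may therefore overstate what could be called here, and they do not cover members under 1 CPM. DESeq2 called 1 of 80 members in cortex (Kcnj2, 1.25%, against 1.22% of all genes) and 1 of 69 in cerebellum (Kcnn2, 1.45%, against 1.50%), shares near the background.

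Kcnj2 (Kir2.1) came nearest to the threshold in cortex. Its wild-type libraries held 13.1 to 26.6 CPM (median 18.3), and the PON2-deficient ones 12.4 to 16.7 CPM (median 14.2). The wild-type female replicate 3 at 13.1 CPM was the library that made the groups overlap, and the other 9 wild-type libraries lay at 17.0 CPM or above. The difference was -0.40 (log2, SE 0.0935, unadjusted p 3.51e-04, edgeR adjusted p 0.0942), with -0.47 in females and -0.33 in males. DESeq2 gave an adjusted p of 0.00920, and without that wild-type library edgeR gave -0.46 and an adjusted p of 0.0314, over a range of 0.0092 to 0.189 for all alternatives tried. In striatum, where Kcnj2 is highest, the difference was -0.04 (SE 0.0879, edgeR adjusted p 0.995), and the difference between the 2 regions' effects was not called (log2 0.36, edgeR adjusted p 0.734). Without striatum male PON2-deficient replicate 5 these were 0.00 (edgeR adjusted p 0.999) and 0.40 (edgeR adjusted p 0.594). Also among the members with the smallest p in cortex were the KCNE-like Kcne1l (2.76 to 4.74 CPM in wild-type and 1.92 to 4.45 CPM with PON2 deficiency, log2 -0.33, edgeR adjusted p 0.358) and Kcnip1 (19.2 to 23.9 and 16.8 to 23.7 CPM, log2 -0.15, edgeR adjusted p 0.365). Their groups overlapped.

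In cerebellum the SK channel Kcnn2 had the smallest p. Its wild-type libraries held 24.9 to 34.6 CPM (median 28.6), and the PON2-deficient ones 27.0 to 38.8 CPM (median 34.8). The groups overlapped, and the difference was 0.23 (log2, SE 0.0619, edgeR adjusted p 0.149), with 0.18 in females and 0.28 in males. DESeq2 gave an adjusted p of 0.0322 (0.0322 to 0.269 over the alternatives). Kcnj5, a Kir3 subunit, reached at most 0.481 CPM in a cerebellar library (log2 0.59, SE 0.231, edgeR adjusted p 0.335), with -0.01 in females and 1.18 in males. Kcnk10 (39.7 to 44.9 CPM in wild-type, 37.0 to 43.2 in PON2-deficient, edgeR adjusted p 0.346) and Kcna2 (442 to 522 and 399 to 498 CPM, edgeR adjusted p 0.361) both differed by -0.09 (log2) with overlap.

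In striatum the BK beta subunit Kcnmb1 (1.04 to 2.16 CPM in wild-type and 0.817 to 2.59 CPM with PON2 deficiency, log2 0.36, edgeR adjusted p 0.982), Kcna2 (212 to 275 and 168 to 252 CPM, log2 -0.13, edgeR adjusted p 0.995) and Kcnh2 (33.5 to 62.9 and 21.9 to 56.9 CPM, log2 -0.25, edgeR adjusted p 0.995) were among the members with the smallest p, all with overlap. Without striatum male PON2-deficient replicate 5 they stood at 0.34, -0.10 and -0.18 (log2, edgeR adjusted p 0.570, 0.601 and 0.665), and 0 members were called. In females alone Kcng4 went from 8.82 ± 4.21 to 3.96 ± 1.10 CPM (SD, n = 5 libraries, log2 -1.15, edgeR adjusted p 0.884), and Kcnc1 and Kcnc2 were at -0.27 and -0.49. In females the thalamus markers summed to 65.7 to 271 CPM in wild-type striatum libraries and to 35.5 to 127 CPM in PON2-deficient ones. Their part in these values was not tested. Male Kcng4 went the other way, from 3.06 ± 0.549 to 4.04 ± 2.50 CPM (SD, n = 5 libraries, log2 0.40, edgeR adjusted p 0.817). Kcnc1 and Kcnc2 were at 0.04 and -0.06 in males. These male values include striatum male PON2-deficient replicate 5.

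**Figure D5:**
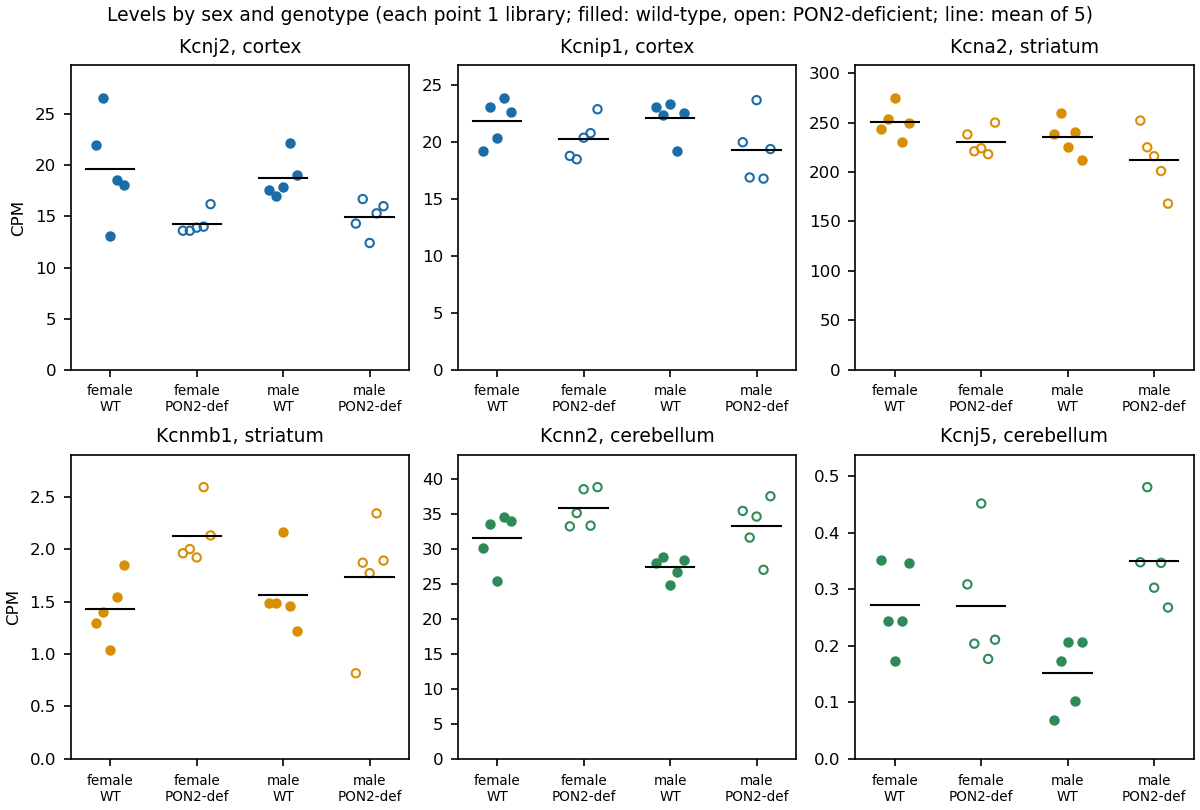
CPM of 6 members by sex and genotype in the region named (each point 1 library, filled wild-type, open PON2-deficient, line: mean of 5, axis from 0). Kcnj2 in cortex shows 1 wild-type library at 13.1 CPM among the PON2-deficient values, and Kcnn2 in cerebellum shows overlapping groups.

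Within each sex, 0 members were called in any region by edgeR, and 1 of 75 was called by DESeq2, Kcnab2 in male cortex (1.33%, against 2.37% of all genes). The background was 0.00527% of all genes in female cortex and in both sexes' striatum, 0.148% in male cortex, 0.00534% in female cerebellum and 0.0160% in male cerebellum. An unadjusted p under 0.05 was reached in cortex by 7 of 80 members in females (8.75%, against 6.60% of all genes) and 13 in males (16.2%, against 14.0%). In striatum it was reached by 7 of 80 in females (8.75%, against 4.08%) and 3 in males (3.75%, against 5.96%), and in cerebellum by 4 of 77 in females (5.19%, against 5.16%) and 4 in males (5.19%, against 10.6%). Kcnab2 in male cortex averaged 388 CPM in the wild-type group and 454 CPM in the other (log2 0.22, SE 0.0637, edgeR adjusted p 0.121), and its difference in female cortex was -0.11. The test of the difference between the sexes gave 0 calls in each region, where 0.00% of all genes were called. In cortex it reached an unadjusted p under 0.05 in 15 of 80 members (18.8%, against 9.56% of all genes), with the smallest p for Kcnab2 (log2 0.34, edgeR adjusted p 0.304), Kcnj6 (0.47, edgeR adjusted p 0.334) and Kcnk5 (-1.55, edgeR adjusted p 0.334, with group means of 0.605 to 1.25 CPM). The difference of the genotype effect between regions gave 0 calls among 82 members in all 3 pairs of regions, with and without striatum male PON2-deficient replicate 5. With all libraries 0.0147% of all genes were called between cerebellum and cortex, 0.00981% between cerebellum and striatum and 0.00% between striatum and cortex.

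The partner proteins of these channels were taken from a fixed list of 17 genes, 16 of them tested. Between cerebellum and cortex Cntn2, which holds Kv1 channels beside the nodes of myelinated axons (386 against 153 CPM), and the BK gamma subunit Lrrc38 (11.4 against 2.54 CPM) were called higher, and Lgi1, a secreted protein that acts on Kv1 channels (76.1 against 153 CPM), and Lrrc55, a BK gamma subunit (5.21 against 29.4 CPM), lower. Abcc8, the receptor of ATP-sensitive Kir channels, had 60.3 CPM in cerebellum and 18.8 in striatum (log2 1.68, edgeR adjusted p 2.68e-19). None of the 16 was called for genotype in a region by edgeR.

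Across the family, 73 members reached a mean of 1 CPM in wild-type cortex, 74 in striatum and 63 in cerebellum. Kcnh8, Kcnk15, Kcnk5, Kcnn4, Kcnrg and Kcnv2 stayed under 1 CPM in every region. Of these Kcnv2 was higher in cerebellum, at 0.449 to 0.933 CPM against 0.00 to 0.113 CPM in cortex. The median coefficient of variation between wild-type libraries was 9.70% in cortex, 14.8% in striatum and 12.2% in cerebellum over the members at 1 CPM or more.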

How the data were processed

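RNA from 60 libraries was analysed. The authors deposited estimated counts per gene, log2 CPM values and a precision weight score for each gene and library. The tools in the submitters' processing notes are Salmon, edgeR and limma, with no version. Aligner settings, build, annotation and strandedness: not given in the sources used here.

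Estimated counts were rounded and tested with edgeR 4.0.16 (quasi-likelihood F test, TMM, filterByExpr, R 4.3.3), within each region over 20 libraries for genotype and over the 30 wild-type libraries for region. P-values were adjusted by Benjamini-Hochberg over all genes tested, with a threshold of 0.05. Standard errors were derived from the log2 difference and F. CPM used TMM factors over all 60 libraries. Lengths were unions of exons in GENCODE M21 (GRCm38). Gene fits were tested on simulated counts. Alternatives were DESeq2 1.42.0, limma 3.58.1 voom, other normalization, no filter, the deposited log2 CPM with weights, a replicate block, covariates for choroid plexus markers and transcript length, and leaving out each library. The highest correlation between 2 libraries was 0.996, so none was treated as a duplicate.

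Members and lists were chosen with earlier results of these data known. Genes were named by smallest p for genotype (4 per region), by level per length in each class and by size of regional difference (6 per direction and pair), and others where a class or pattern is described, chosen after their values were seen. Some genes that this rule names are not reported here, while counts and sums over the family include them. A planned search of protein sequences was replaced by a search of coding sequence, because protein sequences were not used here. Same-numbered wild-type and PON2-deficient libraries of male striatum, which cannot share a mouse, correlated above 0.1 in every pair (0.11 to 0.55). No other set did. Same-numbered libraries of different regions within a genotype had median correlations of 0.06 to 0.14. No label says that a number marks a shared mouse.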

Additional observations from a re-analysis of the deposited data

Results flagged for a closer look

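In groups of 10 libraries, a value was singled out when its gap to the nearest other library was large for the group's range. This rule picked 9 of 129 groups (6.98%), and chance picks about 1 in 20. Kcnmb1 was 0.817 CPM in striatum male PON2-deficient replicate 1, against 1.77 to 2.59 CPM in the others. Kcna4 was 4.18 CPM in cerebellum female wild-type replicate 2, against 2.18 to 3.09 CPM. Kcnj2 was 49.1 CPM in striatum male wild-type replicate 5, against 38.5 to 42.3 CPM, and the share of SK and IK pores in that library was 1.43%, against 1.68 to 1.91%. Kcng3 was 0.0691 CPM in cerebellum male wild-type replicate 3, against 0.00 to 0.0347 CPM. Kcnk4 was 3.77 CPM in cerebellum male wild-type replicate 5, against 2.05 to 2.92 CPM. In cortex male wild-type replicate 3, Kcnj4 was 152 CPM, against 120 to 132 CPM, and Kcnh4 was 28.7 CPM, against 17.7 to 22.2 CPM. The Kv1 share was 9.36% in cerebellum male wild-type replicate 4, against 10.2 to 11.0%. That library had a mean deposited precision weight 0.324 times its region's median. For striatum male wild-type replicate 5 the weight was 0.381 times the median.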

How the results depend on the processing

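With DESeq2, 1 member was called for genotype in cortex, 1 in cerebellum and 1 in male cortex, where edgeR called 0. Leaving out each library gave 0 to 1 members for genotype in cortex, the 1 being Kcnj2 (-0.46) without cortex female wild-type replicate 3, and 0 to 0 in striatum and cerebellum. A replicate block left 0 members called in every genotype comparison and changed no other count by over 1.5 times. Among the members named, the 1 call it ended was Kcng3 between striatum and cortex (0.98 on the log2 scale, under the 2-fold limit). Kcng3 also fell under the limit with voom (0.90) and in 5 of the fits without 1 library (0.97 to 0.98). By adjusted p alone, 66 members differed between striatum and cortex. Leaving out each library gave 48 to 52 members between cerebellum and cortex, 51 to 54 between cerebellum and striatum, and 17 to 21 between striatum and cortex. No named result changed sign.

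Shares depended on the length used, and 24 of 33 moved by more than 1 SD with the longest coding transcript. Outside the Kv2 class, whose shares are not listed, these were, in cortex, striatum and cerebellum, for Kv1, 8.47, 10.6 and 9.86%, for silent Kv 9.28, 7.53 and 5.41%, for Kv7 9.64, 12.3 and 3.81%, for Kir 24.1, 23.0 and 17.2%, for Slo 6.29, 6.58 and 9.05%, and for SK and IK 2.61, 3.62 and 1.51%. Kv4 was 1.83% in cerebellum, EAG, ERG and ELK 10.4% in cortex, and K2P 12.1% in cortex and 17.0% in cerebellum. In PON2-deficient libraries the Kv3 share of cerebellum was 30.6%.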
